A study of Homo sapiens with 12 samples.

Results

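Epidermal growth factor (EGF) family genes were followed in Caco-2, a human colon adenocarcinoma line whose confluent cultures become an enterocyte-like monolayer. The set held 8 of the 26125 rows of the deposited table, found by gene symbol. These were the ligands AREG, EREG, HBEGF and TGFA, the receptors EGFR, ERBB2 and ERBB3, and ERRFI1, an inhibitor of the receptors. RNA was sequenced in 12 libraries, 3 in each of 4 groups. The combined group received ochratoxin A (OTA), a kidney and gut toxin made by moulds, at 15 µmol/L together with Bacillus subtilis CW14. The OTA group received the toxin alone at 15 µmol/L, the CW14 group the bacteria alone, and the control group neither. Agents were added on the apical side. All monolayers had been grown for 21 days on transwell inserts and kept in buffered salt solution. The labels do not give the exposure time, and the bacterial density is left out because its exponent cannot be read. The series title concerns barrier disruption and toxicity of OTA in these cells and their reduction by CW14.

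EGF family ligands are made as membrane proteins and shed by metalloproteases such as ADAM17. Once released, amphiregulin (AREG), epiregulin (EREG), heparin-binding EGF-like growth factor (HBEGF) and transforming growth factor alpha (TGFA) bind EGFR, and EREG and HBEGF can also act through ERBB4. Bound receptors pair up, often with ERBB2, which has no known ligand of its own, or with ERBB3, whose kinase is weak and which recruits PI3K. They signal through RAS and the MAP kinases to early transcription factors. In the gut the pathway is known for epithelial repair and growth. ERRFI1, also called MIG6, is switched on by the pathway and binds the receptor kinase domain to block it.

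The RefSeq promoter windows of the 4 genes that were called lower with OTA are shown here. Each window runs from 250 bases before to 50 bases after a transcript start, 300 bases in all, 5′ to 3′ on the strand of the gene in GRCh38.p14. Expression loci further on are in hg19, the build of the submitters' processing notes. Capitals mark a cyclic AMP response element (CRE, TGACGTCA) or a TATA box (TATAAA). No AP-1 site (TGANTCA) was found in these 4 windows. Both strands were searched, and none of the marked motifs overlap.
AREG (chr4:74444886-74445185, plus strand): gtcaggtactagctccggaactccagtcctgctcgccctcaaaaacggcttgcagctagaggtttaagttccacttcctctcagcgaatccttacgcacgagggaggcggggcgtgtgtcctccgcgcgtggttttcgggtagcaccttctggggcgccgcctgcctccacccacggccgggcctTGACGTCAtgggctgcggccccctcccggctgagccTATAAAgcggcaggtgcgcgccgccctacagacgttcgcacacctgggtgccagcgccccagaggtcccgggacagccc
EREG (chr4:74364895-74365194, plus strand): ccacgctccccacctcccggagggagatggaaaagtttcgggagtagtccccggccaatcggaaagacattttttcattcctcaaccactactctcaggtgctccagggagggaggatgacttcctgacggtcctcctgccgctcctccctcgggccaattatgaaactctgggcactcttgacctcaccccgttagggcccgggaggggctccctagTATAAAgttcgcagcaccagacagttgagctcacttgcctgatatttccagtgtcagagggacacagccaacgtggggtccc
HBEGF (chr5:140346554-140346853, minus strand): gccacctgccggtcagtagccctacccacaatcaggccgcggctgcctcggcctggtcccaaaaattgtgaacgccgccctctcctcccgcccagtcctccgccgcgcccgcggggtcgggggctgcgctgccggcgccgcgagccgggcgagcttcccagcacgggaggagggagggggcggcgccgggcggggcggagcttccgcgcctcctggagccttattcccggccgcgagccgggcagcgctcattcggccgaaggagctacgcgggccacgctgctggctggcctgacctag
ERRFI1 (chr1:8026260-8026559, minus strand): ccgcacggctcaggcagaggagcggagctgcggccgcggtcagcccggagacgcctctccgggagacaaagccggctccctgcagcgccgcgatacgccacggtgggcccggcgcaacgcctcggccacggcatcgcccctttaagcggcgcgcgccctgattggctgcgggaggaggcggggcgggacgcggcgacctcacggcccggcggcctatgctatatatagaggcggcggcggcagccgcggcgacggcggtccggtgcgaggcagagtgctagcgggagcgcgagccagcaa
AREG held a CRE at bases -65 to -58 and a TATA box at -29 to -24 from the start site, and EREG a TATA box at -32 to -27. The windows of HBEGF and ERRFI1 held none of the 3 motifs as spelled above. Other spellings of the TATA box were not searched, and the ERRFI1 window holds the letters tatatata before the start site. Of 35116 RefSeq windows of this length, 1.85% held the CRE, 7.71% the AP-1 site and 11.5% the TATA box. The motif matches are a description of the letters only. In all, 7 of the 8 genes had a window in the table. Among the genes not called lower, an EGFR window held 2 AP-1 sites and 2 TATA boxes. The ERBB2 window held 1 AP-1 site, and another EGFR window and those of TGFA held none of the motifs.

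Some properties of the libraries touch the values that follow. FPKM, a fragment count scaled by transcript length and library size, is a level per length and can be set side by side between genes. Relative depth, read from the steps between low values, ranged from 0.470 to 0.674 in the combined group, 0.660 to 1.60 in OTA, 0.774 to 0.895 in CW14 and 0.914 to 1.58 in control, with control replicate 1 set to 1. Combined replicate 3 was the shallowest and stood apart. Its mean correlation with its group was 0.885, against 0.916 to 0.958 for the other libraries. Its residual SD was 0.588, against 0.305 to 0.424. Calls and log2 differences that include the combined group are therefore followed by their values without this library. The epithelial markers EPCAM, CDH1, KRT8, KRT18, KRT19 and VIL1 were detected in all 12 libraries, the lowest of them VIL1 at 19.2 to 34.6 FPKM, while SI, the brush border sucrase, was at 0 to 0.148 FPKM. Of 9 stromal, immune and endothelial markers, DCN and PTPRC were listed at 0 in every library. The sum of the 9 was 22.3 to 27.6 FPKM in the combined group, 15.0 to 16.2 in OTA, 13.2 to 15.2 in CW14 and 11.3 to 14.9 in control, with CD14 at means of 15.0, 7.35, 8.21 and 7.24 FPKM. Of 10 epithelial markers tested, 1 was called higher and 1 lower with OTA against control, where 17.7% of all genes were called. Without combined replicate 3 it was 4 higher and 2 lower, where 33.8% of all genes were called. Of 4 stromal, immune and endothelial markers tested, 1 was called higher and 0 lower with OTA, with or without that library. It was VIM, at 4.29 ± 0.906 FPKM with OTA, against 1.93 ± 0.379 FPKM in control (SD, n = 3 each). In the combined group against control 2 of the 4 were higher and 0 lower, with or without that library, where 28.8% of all genes were called with it. Relative to OTA, the combined group had 1 of the 10 epithelial markers called higher and 2 lower, where 16.0% of all genes were called. CDX2 was higher and EPCAM and CDH1 lower, with log2 differences of 0.72, -0.64 and -0.46. Without combined replicate 3 these were 0.70, -0.73 and -0.34, all called. ALPI was then also called lower (-0.51), where 21.2% of all genes were called. Of the 4 other markers tested, 1 was called higher with or without that library, CD14 at 0.82 without it. The part of these markers in the results was not tested. The labels do not call the replicates separate cultures, so the p-values reflect only how these samples scatter, which may be technical. In bulk RNA, fewer cells with a transcript and less transcript per cell cannot be told apart.

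**Figure D1:**
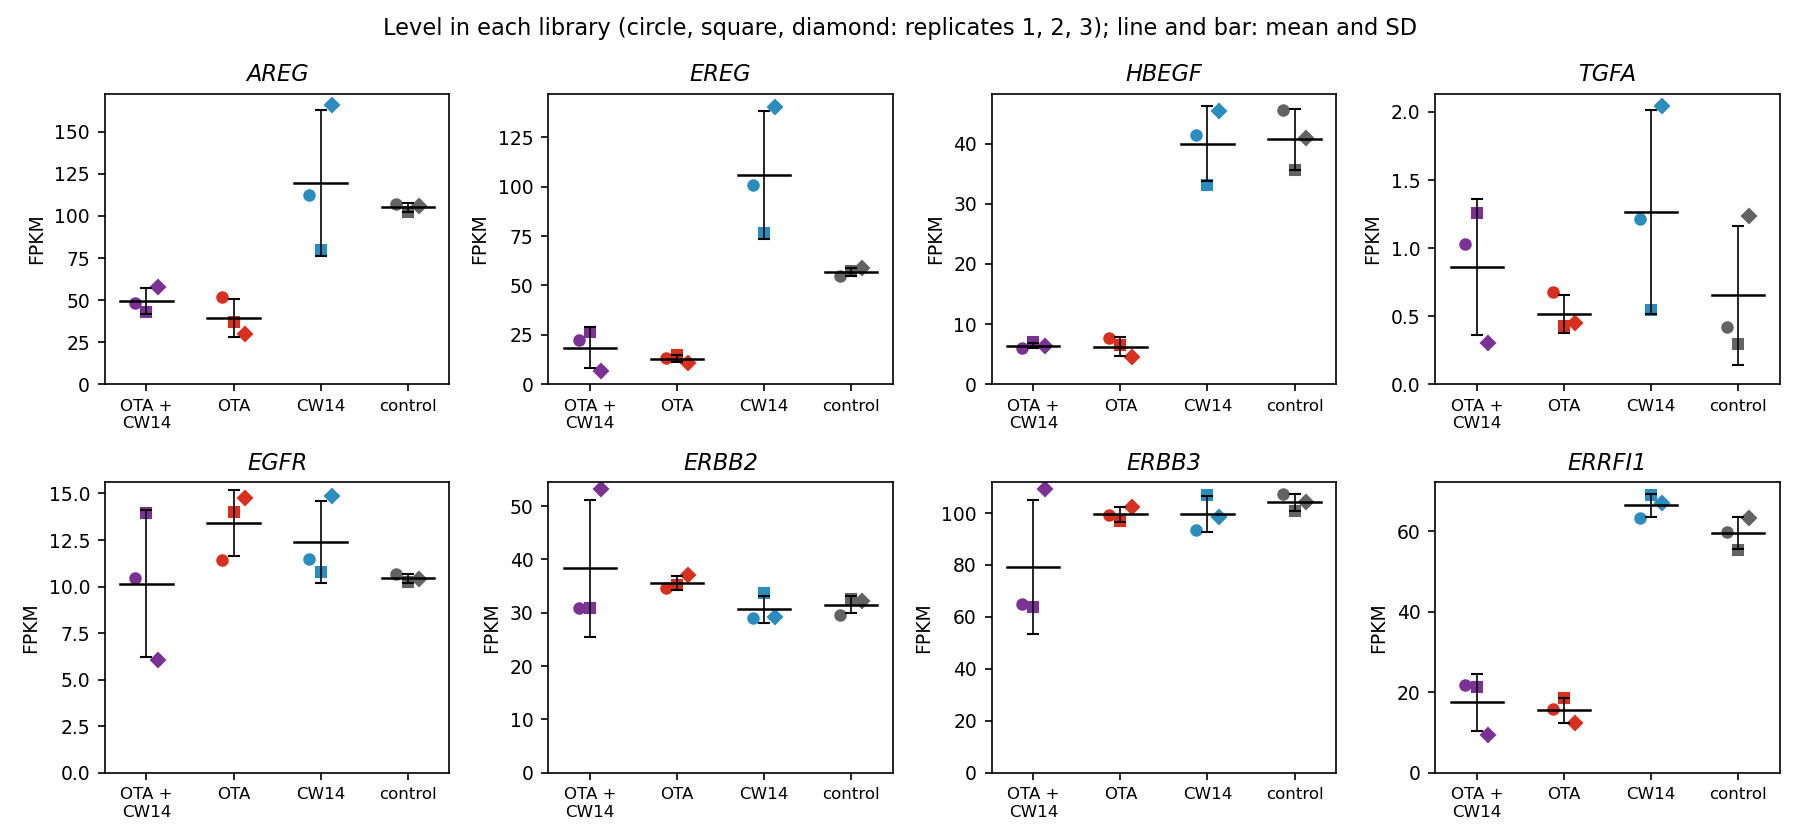
FPKM of the 8 genes in every library, one panel per gene, with groups from left to right OTA plus CW14, OTA, CW14 and control. Points are replicates, lines are means and bars are SDs of 3 libraries. AREG, EREG, HBEGF and ERRFI1 lie lower in the libraries with toxin than in those without, while the receptors mostly share a range and combined replicate 3 departs from its group for EGFR, ERBB2 and ERBB3.

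With OTA alone, 3 of the 4 ligands and the inhibitor fell, and none of the 3 receptors was called with all libraries weighted alike. Tests used a linear model over all genes (limma), which took in the 7 that averaged 1 FPKM or more, and calls were made where the adjusted p fell below 0.05. Of these 7, 0 rose, 4 fell and 3 did neither. Over all 12928 genes tested, 17.7% were called, 12.9% lower and 4.82% higher. Each of the 4 was lower in all 3 OTA libraries than in all 3 controls, which held for 25.7% of all genes. The median log2 difference of the 7 was -1.42, and that of all genes 0.03. The 4 genes stayed lower, with a call, under all 22 alternatives tried, scalings, filters and left-out libraries among them. TGFA did not reach the mean of 1 FPKM and was not tested.

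HBEGF, the ligand that also binds heparin and serves as the diphtheria toxin receptor (chromosome 5, 139712426 to 139726188), had the largest log2 difference of the set with OTA. It was at 7.70, 6.57 and 4.51 FPKM in the OTA libraries, against 45.6, 35.6 and 40.9 FPKM in the controls. Every OTA library was far below every control, and the mean was 6.50-fold lower. The log2 difference was -2.54 (SE 0.18, limma adjusted p = 3.48e-06). The combined libraries held 6.03, 6.97 and 6.30 FPKM, against 41.4, 33.1 and 45.4 FPKM with CW14 alone. The combined libraries lay within the range of the OTA libraries, and the CW14 and control ranges overlapped. HBEGF was 6.22-fold lower in the combined group than with CW14 (log2 difference -2.45, SE 0.18, limma adjusted p = 3.07e-06). With combined replicate 3 left out it was -2.44 (adjusted p = 7.55e-06).

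EREG, a ligand of EGFR and ERBB4 (chromosome 4, 75230858 to 75254477), was at 13.2, 14.9 and 11.0 FPKM with OTA, against 54.8, 57.3 and 58.7 FPKM in control. The groups did not overlap, and the mean was 4.37-fold lower with the toxin, a log2 difference of -2.06 (SE 0.38, limma adjusted p = 0.00275). With CW14 alone EREG was at 101, 76.4 and 141 FPKM, above all 3 controls and with a wide spread among the 3 libraries. The mean was 1.86 times that of control (log2 difference 0.84, 95% interval 0.02 to 1.66), and the difference was not called (unadjusted p = 0.0459, limma adjusted p = 0.749). EREG was at 22.6, 26.3 and 6.87 FPKM in the combined group. Replicates 1 and 2 lay above all OTA libraries and replicate 3 below them all. Against CW14 alone the combined mean was 5.70-fold lower (log2 difference -2.60, SE 0.38, limma adjusted p = 4.69e-04). Without combined replicate 3 that log2 difference was -2.03 (limma adjusted p = 4.23e-05).

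AREG, the most abundant ligand (chromosome 4, 75310813 to 75490485), was at 51.7, 37.3 and 29.6 FPKM with OTA, against 107, 102 and 106 FPKM in control. The controls were nearly equal, the OTA libraries spread more widely, and the groups did not overlap. Its mean was 2.66-fold lower in the OTA group, a log2 difference of -1.42 (SE 0.25, limma adjusted p = 0.00197). AREG was at 48.2, 42.8 and 57.6 FPKM in the combined group, against 113, 79.9 and 166 FPKM with CW14 alone. The mean was 2.41-fold lower in the combined group (log2 difference -1.20, SE 0.25, limma adjusted p = 0.004; -1.31 and adjusted p = 0.00356 without combined replicate 3), and CW14 libraries lay on both sides of the controls. The deposited AREG locus spans 179672 bases, while the RefSeq gene covers 9870. RefSeq lists AREGB, once the name of a second copy of the gene, as a synonym of AREG, and the table has no row of that name. How fragments of the copies were assigned is not given in the sources used here.

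TGFA, a ligand of EGFR (chromosome 2, 70674410 to 70781147), was near the floor throughout. It was at 1.03, 1.26 and 0.300 FPKM in the combined group, 0.676, 0.429 and 0.447 with OTA, 1.21, 0.547 and 2.04 with CW14, and 0.424, 0.297 and 1.24 in control. The 4 groups overlapped. When every listed gene was tested without a filter, TGFA was not called in any comparison (limma adjusted p from 0.573 to 0.962).

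ERRFI1, the receptor inhibitor (chromosome 1, 8071777 to 8086393), was at 15.8, 18.5 and 12.3 FPKM with OTA, against 59.9, 55.4 and 63.4 FPKM in control. It was 3.83-fold lower on the mean with OTA, with no overlap (log2 difference -1.89, SE 0.26, limma adjusted p = 3.45e-04). ERRFI1 was at 21.9, 21.3 and 9.42 FPKM in the combined group, against 63.3, 68.9 and 67.0 FPKM with CW14. Combined replicates 1 and 2 lay above the OTA libraries and replicate 3 below them, as for EREG. The mean was 3.79-fold lower in the combined group than with CW14 (log2 difference -1.95, SE 0.26, limma adjusted p = 2.31e-04). With combined replicate 3 left out it was -1.58 (adjusted p = 1.55e-05). CW14 alone was not called against control (log2 difference 0.16, 95% interval -0.40 to 0.72).

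**Figure D2:**
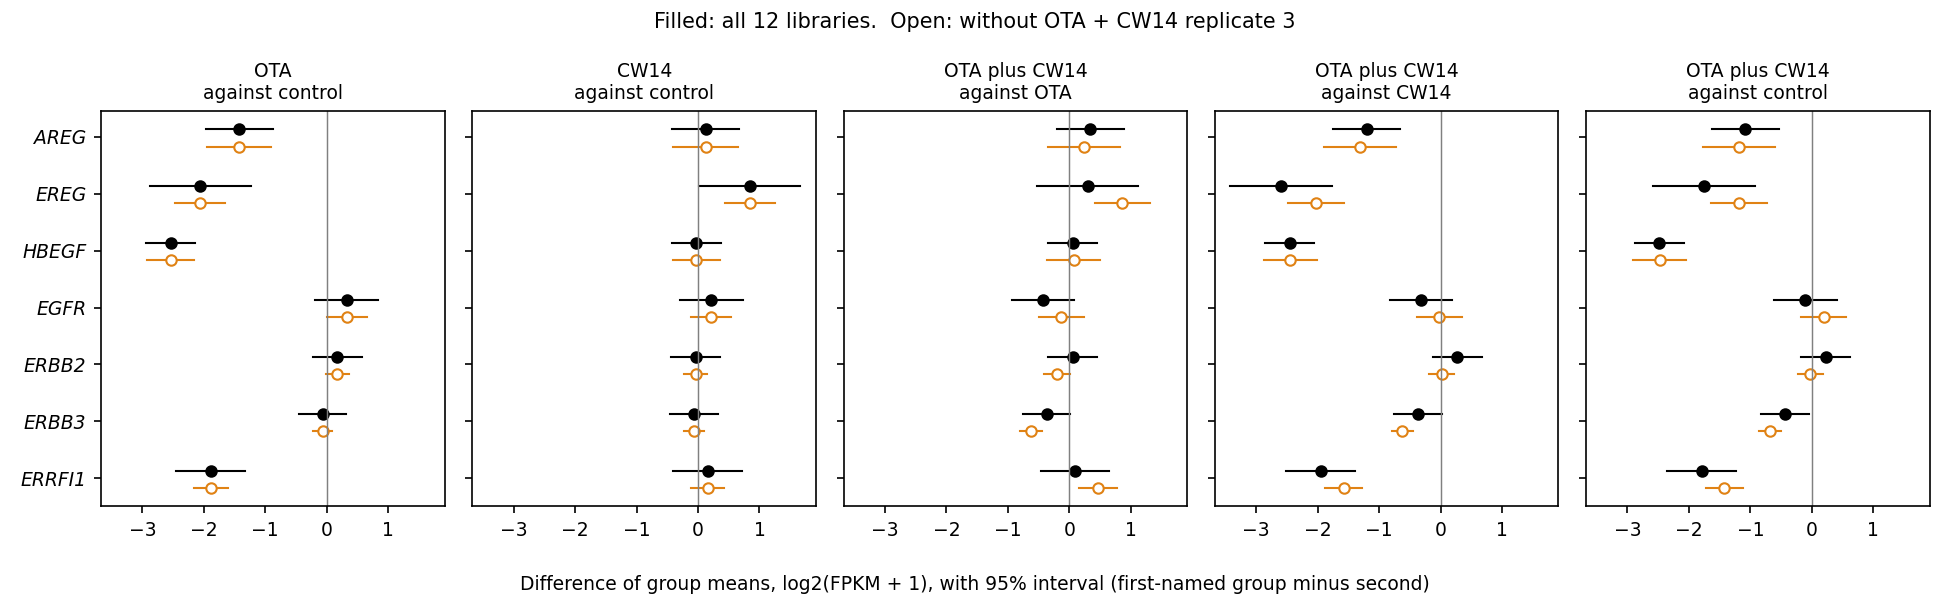
Differences of group means on the log2(FPKM + 1) scale with 95% intervals for the 7 tested genes in 5 comparisons, the first-named group minus the second. Filled points use all 12 libraries and open points leave out combined replicate 3. AREG, EREG, HBEGF and ERRFI1 are below 0 in the 3 comparisons of a toxin group with one that had no toxin, and ERBB3 moves away from 0 in the combined group when that library is left out.

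None of the 3 receptors was called in any comparison over all 12 libraries as deposited and weighted alike. EGFR, the receptor shared by the 4 ligands (chromosome 7, 55086723 to 55275031), was at 11.4, 14.0 and 14.8 FPKM with OTA, against 10.7, 10.2 and 10.4 FPKM in control. All OTA libraries were above all controls, as in 24.4% of all genes tested. The difference was not called (log2 difference 0.32, 95% interval -0.19 to 0.83, limma adjusted p = 0.383). With array weights, which weight libraries by their scatter, it was called higher at 0.31, as were 2781 of all 12928 genes. Its limma adjusted p was 0.0499 there, and 0.0499 to 0.619 over the 22 alternatives. EGFR was at 10.4, 13.9 and 6.06 FPKM in the combined group and at 11.5, 10.8 and 14.9 FPKM with CW14, with overlap. EGFR-AS1, an antisense gene listed at the same locus, was at 7.84 to 12.4 FPKM in the combined group, 8.76 to 12.5 with OTA, 13.5 to 18.5 with CW14 and 11.2 to 12.03 in control. The library kit is not stated to mark strand, so fragments of EGFR and EGFR-AS1 cannot be told apart where they overlap.

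ERBB2, the partner receptor without a ligand (chromosome 17, 37844335 to 37884915), was at 34.6, 35.1 and 37.1 FPKM with OTA, against 29.6, 32.6 and 32.3 FPKM in control. The OTA libraries were again all above the controls, by a small margin, and the difference was not called (log2 difference 0.17, 95% interval -0.23 to 0.57, limma adjusted p = 0.562). ERBB2 was at 30.9, 31.0 and 53.1 FPKM in the combined group, against 29.1, 33.6 and 29.2 FPKM with CW14. Only replicate 3 of the combined group lay outside the range of the CW14 libraries on the high side.

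ERBB3, the receptor that recruits PI3K (chromosome 12, 56473807 to 56497291), was the most abundant receptor. It was at 99.1, 96.9 and 102 FPKM with OTA, against 107, 101 and 104 FPKM in control (log2 difference -0.07, 95% interval -0.45 to 0.32, limma adjusted p = 0.837). The combined libraries held 65.1, 63.7 and 109 FPKM, against 93.4, 107 and 98.4 FPKM with CW14. Replicates 1 and 2 were below every other library of the study, and replicate 3 was above them all. The combined group was not called against OTA (log2 difference -0.37, limma adjusted p = 0.168), against CW14 (-0.37, adjusted p = 0.128) or against control (-0.43, adjusted p = 0.0848). Without combined replicate 3 the same 3 log2 differences were -0.62 (limma adjusted p = 0.00124), -0.62 (adjusted p = 2.43e-04) and -0.68 (adjusted p = 1.24e-04). These values rest on 2 combined libraries. ERBB3 was also called with all 12 libraries after quantile normalization, against CW14 (-0.38, adjusted p = 0.026) and against control (-0.38, adjusted p = 0.0276). With array weights it was called in all 3 comparisons, at -0.60 against OTA, -0.58 against CW14 and -0.65 against control. Of all 12928 genes, 3797, 4013 and 4383 were called lower there.

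The order of levels differed between toxin and no-toxin groups. In control the means ran AREG 105.02, ERBB3 104, ERRFI1 59.6, EREG 56.9, HBEGF 40.7, ERBB2 31.5, EGFR 10.4 and TGFA 0.653 FPKM, with AREG and ERBB3 overlapping, and likewise ERRFI1 and EREG. With OTA the order was ERBB3 99.4, AREG 39.5, ERBB2 35.6, ERRFI1 15.5, EGFR 13.4, EREG 13.03, HBEGF 6.26 and TGFA 0.517 FPKM. AREG overlapped ERBB2 there, and ERRFI1, EGFR and EREG overlapped in turn. The combined group had the order ERBB3 79.3, AREG 49.5, ERBB2 38.3, EREG 18.6, ERRFI1 17.5, EGFR 10.1, HBEGF 6.43 and TGFA 0.862 FPKM, and AREG overlapped ERBB2 while EREG, ERRFI1, EGFR and HBEGF overlapped in turn. With CW14 it was AREG 119, EREG 106, ERBB3 99.6, ERRFI1 66.4, HBEGF 39.99, ERBB2 30.6, EGFR 12.4 and TGFA 1.27 FPKM. AREG, EREG and ERBB3 overlapped there, as did HBEGF and ERBB2.

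Summed over the 4 ligand genes, the level was 77.9, 77.3 and 71.1 FPKM in the combined group, 73.3, 59.2 and 45.5 with OTA, 256, 190 and 354 with CW14, and 208, 195 and 207 in control. The 6 libraries with toxin were all below the 6 without. Over EGFR, ERBB2 and ERBB3 the sum was 107, 109 and 168 FPKM in the combined group, 145, 146 and 154 with OTA, 134, 151 and 143 with CW14, and 148, 144 and 147 in control. Ligand and receptor transcripts thus stood at a ratio of 0.422 to 0.731 in the combined group, 0.295 to 0.505 with OTA, 1.25 to 2.48 with CW14 and 1.36 to 1.41 in control.

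**Figure D3:**
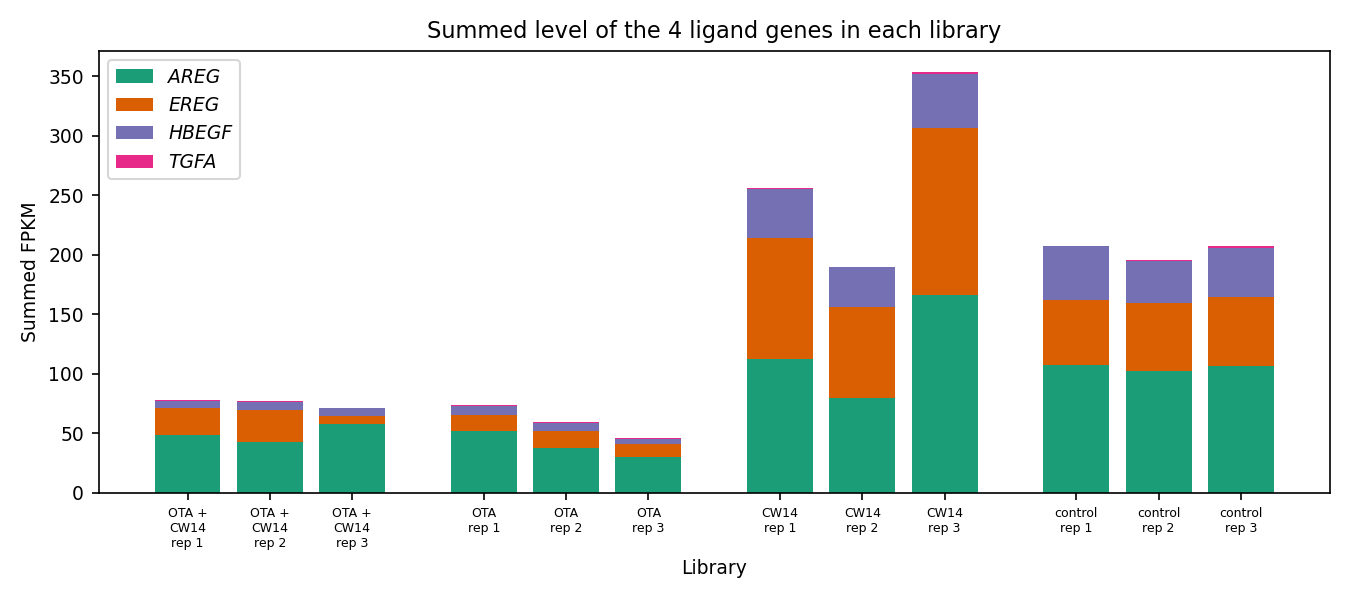
Summed FPKM of AREG, EREG, HBEGF and TGFA in each of the 12 libraries, as stacked bars grouped from left to right as OTA plus CW14, OTA, CW14 and control. The libraries with toxin sum to 45.5 to 77.9 FPKM and those without to 190 to 354 FPKM, and the EREG segment is largest with CW14.

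The shares of AREG and HBEGF in the sum did not overlap between the libraries with and without toxin, while those of EREG and TGFA did. HBEGF made up 9.91% to 11.1% of the ligand sum with OTA, against 18.2% to 21.9% in control, and AREG 63.0% to 70.6% with OTA, against 51.2% to 52.3% in control. The ratio of AREG to HBEGF was 6.71, 5.68 and 6.56 in the OTA libraries, against 2.35, 2.87 and 2.59 in control. The combined libraries had ratios of 7.995, 6.14 and 9.15, also above all controls. The ratio of AREG to EREG was 3.92, 2.50 and 2.70 with OTA, against 1.95, 1.78 and 1.81 in control. With CW14 alone that ratio was 1.11, 1.05 and 1.18, below all controls, and EREG held 39.4% to 40.2% of the ligand sum, against 26.4% to 29.4% in control. The combined group had ratios of AREG to EREG of 2.14, 1.63 and 8.39, on both sides of the controls. By a two-sided exact permutation test each of the 4 contrasts with control that did not overlap (AREG to HBEGF with OTA and in the combined group, and AREG to EREG with OTA and with CW14) gave p = 0.1, the smallest that 3 against 3 libraries allow. It was 0.167 after adjustment over 10 such tests. The lack of overlap itself fixes the unadjusted p, so the test adds nothing to it.

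CW14 alone left the set without a call. In CW14 against control, limma called 0 of the 7 genes and 0.364% of all genes. At an unadjusted p under 0.05 it was 1 of the 7, EREG, and 6.64% of all genes. The log2 difference was 0.12 for AREG, -0.03 for HBEGF, 0.21 for EGFR, -0.04 for ERBB2 and -0.06 for ERBB3. The 95% intervals for AREG and HBEGF ran from -0.42 to 0.66 and from -0.43 to 0.37. EREG and EGFR were higher in all 3 CW14 libraries than in all 3 controls, as were 9.66% of all genes tested.

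Adding CW14 to the toxin asks whether the bacteria move these genes back towards control. In the combined group against OTA, limma called 0 of the 7 genes and 16.0% of all genes. At an unadjusted p under 0.05 it was also 0 of the 7, and 33.2% of all genes. The log2 differences of the 4 genes that fell with OTA were 0.34 for AREG (95% interval -0.20 to 0.89), 0.30 for EREG (-0.52 to 1.13), 0.06 for HBEGF (-0.34 to 0.46) and 0.09 for ERRFI1 (-0.47 to 0.65). With combined replicate 3 left out, limma called 3 of the 7 and 21.2% of all genes, 2 of the 7 higher and 1 lower against 9.41% and 11.8% of all genes. These were EREG at 0.87 (adjusted p = 0.015), ERRFI1 at 0.47 (adjusted p = 0.0364) and ERBB3 at -0.62 (adjusted p = 0.00124). EREG at 22.6 and 26.3 FPKM and ERRFI1 at 21.9 and 21.3 FPKM in those 2 libraries were still below every control. Neither AREG (0.23, 95% interval -0.35 to 0.82) nor HBEGF (0.07, -0.36 to 0.50) was called without that library.

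The toxin comparison was also made in the presence of bacteria. The combined group against CW14 and OTA against control share no library in their means. Both tests used 1 estimate of the spread from all 12 libraries, so they are not independent. In the combined group against CW14, 4 of the 7 genes fell and 0 rose, against 17.5% and 14.8% of all genes, 32.3% together. The genes were again AREG, EREG, HBEGF and ERRFI1. Against control the same 4 were called lower, where 28.8% of all genes were called and 16.8% lower, with log2 differences of -1.08 for AREG, -1.75 for EREG, -2.48 for HBEGF and -1.79 for ERRFI1. Without combined replicate 3 these were -1.19, -1.19, -2.47 and -1.42, all called. The difference between the toxin effects with and without CW14 (interaction) was called by limma in 0 of the 7 genes and in 3.33% of all genes. At an unadjusted p under 0.05 it was also 0 of the 7, and 24.7% of all genes. It was -0.54 for EREG (95% interval -1.70 to 0.62), against 0.02 without combined replicate 3 (-0.59 to 0.63). For HBEGF it was 0.09 (-0.48 to 0.65), and 0.10 without that library. With combined replicate 3 left out, ERBB3 was called lower beside these 4 genes against both CW14 and control, where 18.7% and 19.0% of all genes were called lower. The interaction was then called for ERBB3 (-0.55, adjusted p = 0.0126) among 12.3% of all genes.

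Other genes of the pathway were read from the same fit. Of the other ligands and ERBB4, 2 of 8 passed the filter on low values, EGF and NRG4, with 0 called with OTA. EGF, the founding ligand, was at 0.799, 1.03 and 0.623 FPKM in the combined group, against 2.26, 1.33 and 2.56 FPKM with OTA, and it fell in that comparison (log2 difference -0.73, adjusted p = 0.0498), close to the threshold and not called without combined replicate 3 (-0.65, adjusted p = 0.0806). NRG3 was listed at 0 in all 12 libraries and ERBB4 did not exceed 0.0701 FPKM. Of 6 shedding genes tested, 0 were called with OTA, where 17.7% of all genes were. Against OTA, the combined group had lower ADAM9, a membrane metalloprotease (30.5 ± 12.5 FPKM, against 53.2 ± 0.419 FPKM with OTA, SD, n = 3 each), and higher RHBDF2, a partner that carries ADAM17 to the surface (9.21 ± 3.12 FPKM, against 4.88 ± 0.861 FPKM with OTA). Without combined replicate 3, ADAM9 was still called (-0.50, against -0.88 with it) and RHBDF2 was not (0.55, adjusted p = 0.0762, against 0.76). Of the 6, 0 were then higher and 2 lower in that comparison, where 9.41% of all genes were called higher and 11.8% lower. With OTA against control 1 of the 6 was then higher, where 14.7% of all genes were.

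Among adaptors and the RAS, MAP kinase and PI3K core, the count of calls depended on 1 library. Of 22 tested, 1 rose and 2 fell with OTA, where 4.82% and 12.9% of all genes did, and the median log2 difference was -0.09. With combined replicate 3 left out, 5 rose and 7 fell with OTA, where 14.7% of all genes were called higher and 19.0% lower. SOS2, an exchange factor for RAS, was at 4.01 ± 0.254 FPKM with OTA, against 9.53 ± 0.969 FPKM in control. The adaptor SHC1 fell by 0.82 and the kinase gene AKT2 rose by 0.50 on the log2 scale. Against OTA, 1 of the 22 was higher and 2 lower in the combined group, where 16.0% of all genes were called. Without combined replicate 3 it was 2 and 4, where 9.41% of all genes were called higher and 11.8% lower. HRAS, a RAS protein gene, rose to 14.2, 10.9 and 31.5 FPKM in the combined group, against 9.31, 5.36 and 5.92 FPKM with OTA. NRAS, another, fell to 23.1, 23.9 and 11.8 FPKM in the combined group, against 28.5, 34.4 and 33.4 FPKM with OTA. For both, combined replicate 3 was the most distant library, and without it the log2 differences were 0.81 for HRAS and -0.43 for NRAS, both still called, against 1.23 and -0.74 with it.

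Genes listed for receptor turnover, or for restraint of the receptors or of signalling below them, were called in the lower direction with OTA where they were called. Of 22 tested, 0 rose and 6 fell, with a median of -0.36, where 12.9% of all genes fell. Without combined replicate 3, 11 fell, where 19.0% of all genes did. SOCS3, an inhibitor of cytokine receptor signalling, was at 4.11, 4.19 and 2.71 FPKM with OTA, against 20.9, 24.5 and 23.6 FPKM in control. SPRY2 and SPRY4, inhibitors of RAS signalling that the pathway itself induces, fell by 2.31 and 1.99. Set against OTA, SPRY4 rose in the combined group (9.22, 10.3 and 6.85 FPKM, against 5.30, 6.69 and 3.91 FPKM with OTA), with no overlap, and SOCS3 fell by a further 0.63. Both kept their call without combined replicate 3 (0.79 for SPRY4 and -0.53 for SOCS3, adjusted p = 0.0499).

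Most of the listed transcripts that MAP kinase signalling induces were lower with OTA. This list, like the others, was chosen with earlier results of these data known, so its share of calls is a description. Of 20 tested, 0 rose and 17 fell with OTA, with a median of -2.28 beside 0.03 for all genes, of which 12.9% fell. With combined replicate 3 left out, 19 fell, where 19.0% of all genes did. ETV4 was not among them (109 ± 8.50 FPKM with OTA, against 114 ± 10.1 FPKM in control, SD, n = 3 each). EGR1, an early growth response factor, was at 23.1, 26.1 and 16.6 FPKM with OTA, against 281, 281 and 249 FPKM in control. FOSL1, a FOS-related transcription factor, and DUSP5, a phosphatase that acts on MAP kinases, fell by 3.14 and 3.12 on the log2 scale. With CW14, 1 of the 20 was called, where 0.364% of all genes were. At an unadjusted p under 0.05 it was 11 of the 20, and 6.64% of all genes, with a median log2 difference of -0.05 over the 20. The gene called was FOS, at 155, 128 and 87.8 FPKM, against 486, 437 and 358 FPKM in control. Without combined replicate 3 it was 2 of the 20 and 123 of all genes, with MYC also lower (log2 difference -0.91, limma adjusted p = 0.0129). The combined group was lower still for FOS, at 12.6, 14.5 and 9.49 FPKM, against 49.6, 59.1 and 52.4 FPKM with OTA. EMP1, a membrane protein gene, was at 33.3, 31.6 and 22.8 FPKM in the combined group, against 95.4, 111 and 83.1 FPKM with OTA. The log2 differences from OTA were -2.07 for FOS and -1.70 for EMP1 (-1.91 and -1.53 without combined replicate 3, both called). EMP1 and JUN were the 2 of the 20 with a called interaction, where 3.33% of all genes had one. It was -1.91 and -1.37 (-1.74 and -1.07 without combined replicate 3, both called). Without combined replicate 3 the interaction was called higher in 1 of the 20 and lower in 5, where 12.3% of all genes were called.

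**Figure D4:**
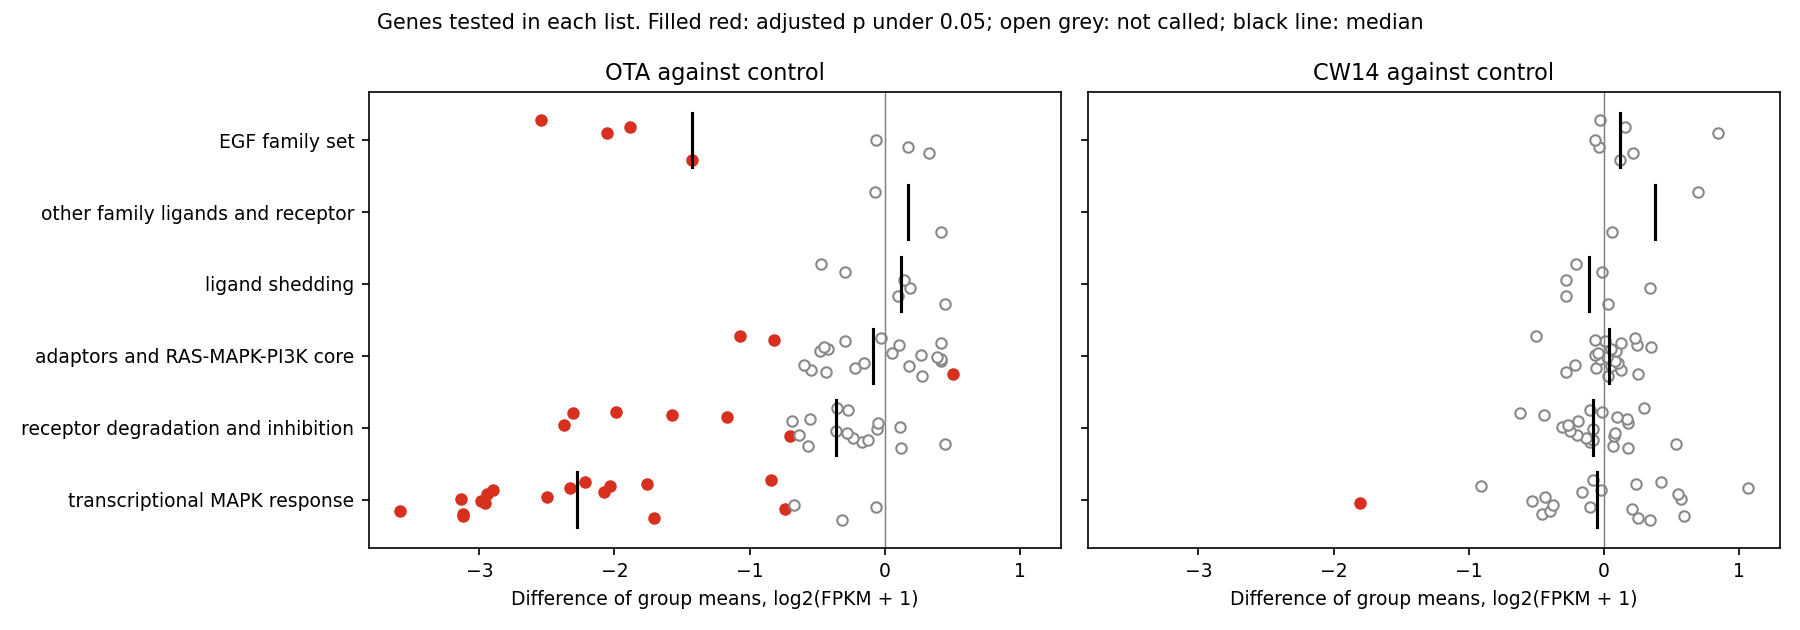
Differences of group means on the log2(FPKM + 1) scale for each tested gene of the EGF family set and 5 pathway lists, with OTA against control on the left and CW14 against control on the right. Filled red points were called, open grey points were not, and black lines are medians. With OTA, 4 of 7 EGF family genes, 3 of 22 adaptor and core genes, 6 of 22 genes of receptor degradation and inhibition and 17 of 20 induced transcripts were called. With CW14 the single called gene is FOS.

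The genes whose profile over the 12 libraries was most like that of each gene were found by Pearson's r of log2(FPKM + 1). All genes tested were searched, except rows named as small RNAs or as dates. The libraries share the 4 groups, and r is given as a description with no test. For HBEGF the nearest were GDF15 (r = 0.991), BCL2L1 (0.989) and EGR1 (0.989). For ERRFI1 they were UBP1 (0.993), WTAP (0.989) and ZNF223 (0.988). For EREG they were NCOA7 (0.985), BCL9L (0.982) and PHLDA1 (0.981), and NCOA7 averaged 155 FPKM with CW14, against 63.2 FPKM in control. For AREG they were PDGFA (0.975), CSRP1 (0.958) and C1orf226 (0.956). Among the receptors the nearest were CASC5 for EGFR (0.967), EBF4 for ERBB2 (0.974) and IL2RG for ERBB3 (0.961).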

How the data were processed

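FPKM values per gene and library were used as deposited by the authors. The submitters' processing notes list cutadapt 1.10, TopHat2 2.0.13, Cufflinks 2.2.1, Cuffnorm, Cuffdiff and hg19. No source used here states their order, the annotation or how libraries were scaled. Groups and replicate numbers came from the sample titles. Absolute depth is unknown. Relative depth was the commonest ratio between a library and control replicate 1 over genes under 0.3 FPKM in both, in log2 steps of 0.01.

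The 12928 genes averaging 1 FPKM or more were analysed as log2(FPKM + 1), a scale that understates differences of low genes. Group means of all 12 libraries were fitted in limma 3.58.1 (R 4.3.3) with an intensity trend and 8 residual degrees of freedom. Tests were two-sided, with Benjamini-Hochberg adjustment over all genes. The code was tested on simulated data. The members, lists and tests were chosen with earlier results of these data known. Each list's named genes are those called with OTA with the 3 largest differences, and the 2 largest among those called with CW14 alone, in the combined group relative to OTA, or in the interaction. Alternatives were the pseudocount, filters, scalings, weights, the trend, a replicate block, the compared groups alone and leaving out each library. List values and background counts without combined replicate 3 were added after the data were seen.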

Additional observations from a re-analysis of the deposited data

How the results depend on the processing

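The log2 differences of the 7 tested genes were recomputed under 22 alternatives, 917 values in all; the interaction could not be fitted with only the compared groups. In 862 the direction and the side of the threshold were as reported, and no call was lost. In 19 a call was gained, and in 35 more a difference that was not called on either side changed sign. The called differences of AREG, EREG, HBEGF and ERRFI1 in OTA against control ranged over -1.63 to -1.24, -2.15 to -1.95, -2.71 to -2.35 and -2.02 to -1.74. With array weights 5 of the 7 were called in OTA against control (1 of them higher, EGFR, adjusted p = 0.0499), where 5864 of all 12928 genes were called. It was 5 in the combined group against CW14 and 5 against control, ERBB3 being the one added in both. Of all genes, 7991 and 8686 were called there. Quantile normalization also gave 5 in those last comparisons, with ERBB3 added, beside 4486 and 3976 of all genes. With array weights 1 of the 7 and 333 of all 12928 genes were called in CW14 against control. The gene was EREG (adjusted p = 0.0153, among adjusted p from 0.0153 to 1 over all alternatives). In the combined group against OTA it was 5 of the 7 and 7703 of all genes. In the interaction it was 2 of the 7 and 5124 of all genes. With these weights ERBB2 in the combined group against OTA was called lower, at -0.19, against 0.06 as reported. The cause was not tested. Leaving out each library gave 0 to 3 called in the combined group against OTA, beside 653 to 3388 of all genes. In the interaction it gave 0 to 1, beside 17 to 1595 of all genes. In the combined group against OTA, the gene called without combined replicate 2 was EGFR (-0.67, limma adjusted p = 0.0405). Those called there without combined replicate 3 were EREG, ERRFI1 and ERBB3. The interaction was called for ERBB3 without combined replicate 3 (-0.55, limma adjusted p = 0.0126).

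Counts over all genes were less stable. In OTA against control, 2288 became 4621 with only the compared groups, 5864 with array weights, and 1299 (without OTA replicate 3) to 4364 (without combined replicate 3). In CW14 against control, 47 became 25 with no filter, 333 with array weights and 4 to 123 with a library left out. In the combined group against OTA, 2070 became 70, 7703 and 653 to 3388 under the compared groups, array weights and left-out libraries. Against CW14, 4179 became 1521, 7991 and 2780 to 5297, and against control 3729 became 1596, 8686 and 2265 to 4776. The interaction's 431 became 235 with no filter, 5124 with array weights and 17 to 1595. Median-centring raised the median OTA difference of all genes by 0.11, and the split of higher and lower calls was 1153 and 1342, against 623 and 1665 as deposited. It was 1016 and 1362 with upper-quartile scaling and 976 and 1454 with quantile normalization. In the combined group against OTA centring gave 774 and 1335, against 1007 and 1063, and in the interaction 171 and 262, against 239 and 192. Upper-quartile scaling gave 2160 and 1777 in the combined group against control, against 1557 and 2172.

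Same-numbered libraries did not deviate together (r from -0.15 to 0.15, over 0.1 in 1 of 18 pairs), so the numbers are not taken as pairs. A replicate block left the number of the 7 called at 4 with OTA and took the interaction's count over all genes to 286.

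Depth was unknown in absolute terms and lowest in the combined group, which limits what can be said of TGFA and of low ligands.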

Other observations

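Combined replicate 3 departed from its 2 companions in opposite directions within the set, values that no comparison above isolates. It had the highest AREG of its group (57.6 FPKM, against 48.2 and 42.8) and the lowest EREG of all 12 libraries (6.87 FPKM), so its ratio of AREG to EREG was 8.39, where no other library exceeded 3.92. Its ERBB2 (53.1 FPKM) and ERBB3 (109 FPKM) were the highest of the study and its EGFR (6.06 FPKM) and ERRFI1 (9.42 FPKM) the lowest, while its HBEGF (6.30 FPKM) lay between its companions. APOA1, an enterocyte apolipoprotein gene, was at 19185 FPKM there, against 7219 and 5364 in the other combined libraries.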
